A study of Mus musculus with 10 samples.

Results

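The genes described here are 35 members of glycolysis and of the response to low oxygen. They were chosen by gene symbol, with earlier results of these data known. The choice was out of 24520 genes in an RNA-seq table of mouse embryonic stem cells (ESCs) and of neural progenitor cells (NPCs) grown from them. By role, 4 bring in and trap glucose, 7 belong to upper and 6 to lower glycolysis, and 3 handle pyruvate and lactate. Another 5 sense oxygen or regulate transcription through the hypoxia-inducible factor HIF, 4 act in mitophagy and stress, 3 modify collagen, and 3 have a role in secretion, pH or another hypoxia response. Of the members, 33 reached 1 RPKM (reads per kilobase of transcript and per M, or mega, of mapped reads) in at least 2 of the 10 libraries, and these were tested among 11956 genes. Eno2, an enolase typical of neurons, stayed between 0.0897 and 0.439 RPKM, and Car9, a cell-surface carbonic anhydrase that responds strongly to hypoxia, stayed between 0.0637 and 0.413 RPKM.

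The study asked what the chromatin protein Cbx3 and the Mediator subunit Med26 do when ESCs become neural cells. The cells were of the mouse ESC line V6.5, and 5 groups of 2 libraries were sequenced: NPCs that received siRNA against Cbx3, NPCs that received siRNA against Med26, control NPCs, ESCs that received siRNA against Cbx3, and control ESCs. All controls carried an siRNA against luciferase, so every group was transfected. NPCs were made through embryoid bodies kept for 4 days and then a monolayer in ITSF medium; day 5 was the day of transfection, and cells were harvested 3 days later, on day 8. ESCs grew in medium with serum and leukemia inhibitory factor on irradiated mouse fibroblast feeders, and the sources used here give neither a transfection time for ESCs nor a step that removed the feeders. The labels call the replicates biological, without naming separate cultures, so what the p-values take into account is the spread among these libraries alone, which may be technical.

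Glycolysis splits glucose into pyruvate in the cytosol. Transporters carry glucose in, hexokinase traps it, phosphofructokinase commits it to the pathway, and lactate dehydrogenase turns pyruvate into lactate so that glycolysis can continue. When oxygen is plentiful, prolyl hydroxylases of the Egln family mark the HIF alpha protein for destruction by the ubiquitin ligase component Vhl; when oxygen is scarce, HIF alpha accumulates and switches on many glycolytic enzymes, glucose transporters, Pdk1, Bnip3 and Vegfa. Because this control acts on the protein, the Hif1a transcript need not follow the activity of the pathway. Pluripotent stem cells are known for a high rate of glycolysis.

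The siRNA targets were low where the labels say they should be. Cbx3 had 0.425 and 0.248 RPKM in NPCs with Cbx3 siRNA, against 9.37 and 9.65 RPKM in control NPCs, and Med26 had 3.04 and 3.07 RPKM in NPCs with Med26 siRNA, against 7.56 and 6.78 RPKM in control NPCs. In ESCs, Cbx3 had 1.01 and 1.96 RPKM after its siRNA, against 14.0 and 56.4 RPKM in controls. Control NPCs held the neural transcripts Sox1 at 9.22 and 8.29 RPKM and Nes at 34.9 and 33.4 RPKM, while the progenitor genes Fabp7, Hes5 and Pou3f2 stayed at or below 0.342 RPKM in their libraries and the pluripotency gene Pou5f1 still had 484 and 497 RPKM; NPC is therefore used as the labels' name. Depth implied by the smallest steps between values was 23.1 M to 63.9 M reads. The libraries numbered 2 of both ESC groups stood apart: values at 2 steps were 0.53 and 0.52 times as frequent as values at 1 step in them, against 1.57 to 1.81 times in the other 8 libraries. Results that involve ESCs are given with this in view.

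In control NPCs the most abundant members were Aldoa, the main aldolase, with 624 and 679.8 RPKM, and Pkm, the pyruvate kinase of most growing cells, with 602 and 636 RPKM, and their ranges overlapped. Ldha, a lactate dehydrogenase subunit, followed with 324 and 346 RPKM. The next level was that of Slc2a3, a high-affinity glucose transporter, with 218 and 211 RPKM. Eno1, the common enolase, and Tpi1, triose phosphate isomerase, came after it with overlapping ranges, at 154 and 171 RPKM and 152 and 171 RPKM. Among the tested members, the lowest in control NPCs were Aldoc, an aldolase of brain, with 1.28 and 1.28 RPKM, and the stress-responsive gene Ndrg1, with 1.79 and 1.97 RPKM. Gapdh, usually one of the most abundant transcripts of a cell, was listed at only 2.47 and 2.13 RPKM. It has 169 matches among annotated pseudogene transcripts (at least 90% identity over 300 bases), the most of any member, and the sources do not say how reads with several matches were counted, so its level is uncertain. Other members with 5 or more such matches were Ldha with 13, Pkm with 8, and Aldoa and Eno1 with 5 each.

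**Figure D1:**
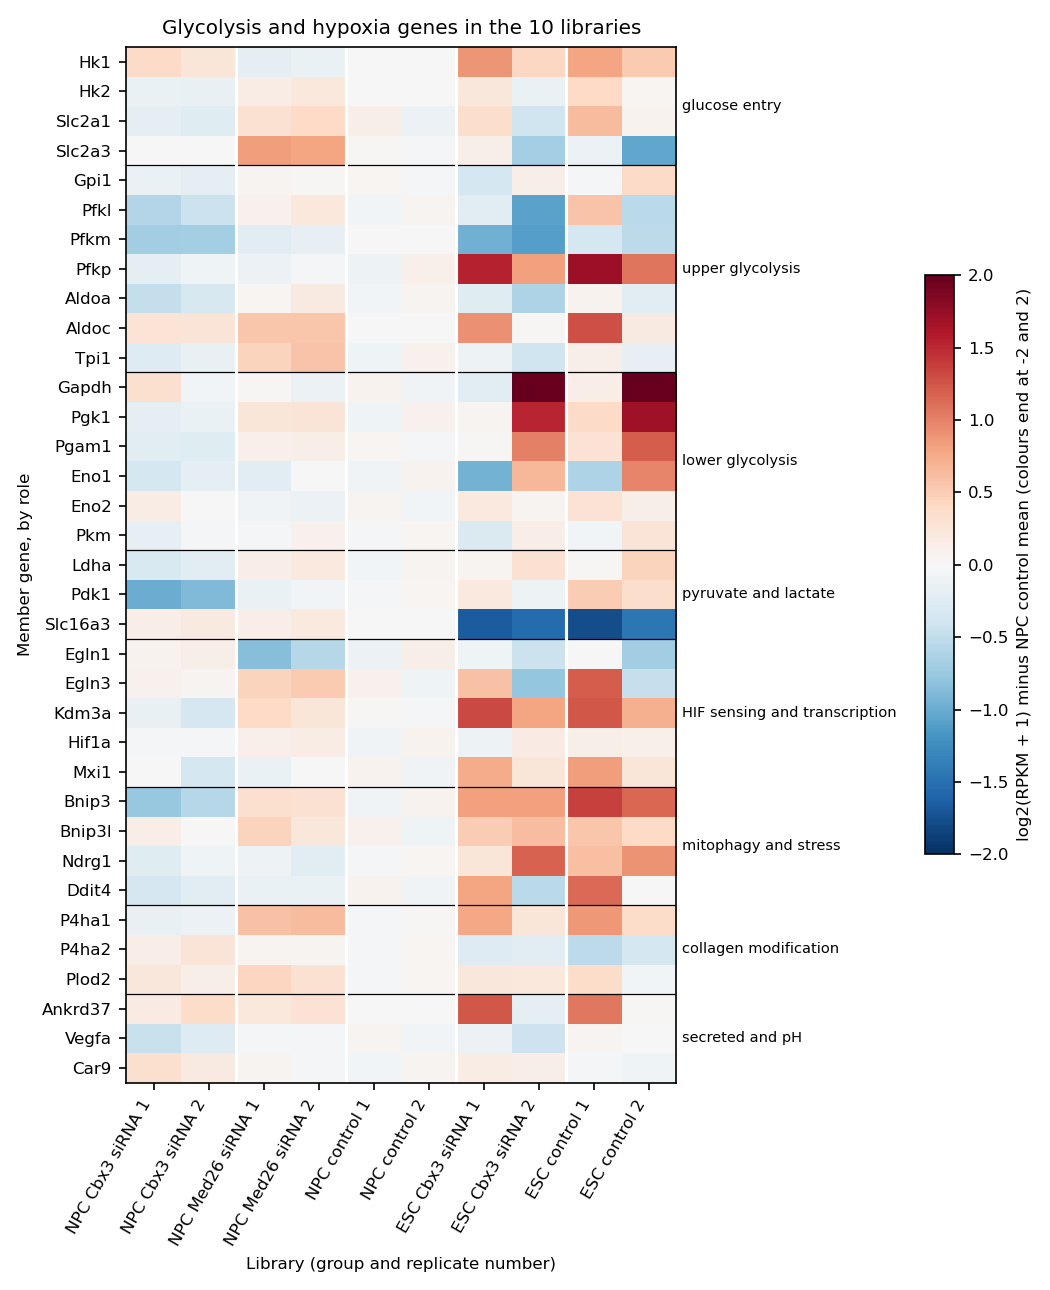
Level of each of the 35 member genes (rows, by role) in each of the 10 libraries (columns), as log2(RPKM + 1) minus the mean of the control NPCs, red higher and blue lower, with colours ending at -2 and 2. Pdk1, Pfkm and Bnip3 are lower in both NPC libraries with Cbx3 siRNA, Slc2a3 is higher in both with Med26 siRNA, and Gapdh, Pgk1 and Eno1 separate the ESC libraries numbered 1 from those numbered 2.

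After Cbx3 siRNA in NPCs, 7 of the 33 tested members fell and 0 rose relative to control NPCs: the kinase Pdk1, the phosphofructokinases Pfkm and Pfkl, the mitophagy receptor Bnip3, and Aldoa, Ldha and Pgam1 of the main glycolytic chain. Over all genes tested, 5.33% were called lower and 7.80% higher at the same threshold, an adjusted p under 0.05 by limma on log2(RPKM + 1), and 13.1% were called in either direction. The median difference was -0.16 over the tested members, against 0.01 over all genes tested. At an unadjusted p under 0.05, 15 members were lower and 5 were higher. Both libraries with Cbx3 siRNA lay below both controls for 18 members and above them for 6, while among all genes this held for 26.5% and 30.1%. All differences between groups in the text are on the log2(RPKM + 1) scale, with the standard error (SE) of the fit, and adjusted p-values are those of limma.

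Pdk1 had the largest difference. It encodes a kinase that switches off pyruvate dehydrogenase and so limits the entry of pyruvate into the citric acid cycle. Its level was 17.4 and 19.0 RPKM in NPCs with Cbx3 siRNA, against 34.6 and 36.9 RPKM in control NPCs, so that both treated libraries lay far below both controls. The fall was 0.94 ± 0.07 (SE, n = 2 each, adjusted p = 0.00144). Ldha, which makes lactate from pyruvate, had 270.4 and 289 RPKM after Cbx3 siRNA, against 324 and 346 RPKM in controls, and fell by 0.26 ± 0.06 (adjusted p = 0.0490). The lactate exporter Slc16a3 had a difference of opposite sign that did not pass, with 143 and 147 RPKM against 129 and 129.9 RPKM in controls (difference 0.16, adjusted p = 0.0880).

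In upper glycolysis 2 of the 3 phosphofructokinases, which commit sugar to the pathway, and an aldolase fell. Pfkm, the muscle-type phosphofructokinase, had 12.3 and 12.5 RPKM in NPCs with Cbx3 siRNA, against 20.8 and 20.6 RPKM in control NPCs, and fell by 0.69 ± 0.06 (adjusted p = 0.00204). Pfkl, the liver type and the most abundant of this family here, had 37.9 and 42.1 RPKM after Cbx3 siRNA, against 54.9 and 59.3 RPKM in controls, and fell by 0.50 ± 0.08 (adjusted p = 0.0116). The treated and control values of both genes were well separated. Aldoa, which splits fructose bisphosphate, had 469 and 523 RPKM against 624 and 679.8 RPKM in controls, a fall of 0.40 ± 0.09 (adjusted p = 0.0340). In lower glycolysis Pgam1, a phosphoglycerate mutase, had 45.0 and 44.2 RPKM against 53.6 and 51.1 RPKM in controls, a fall of 0.23 ± 0.05 (adjusted p = 0.0342). The other tested members of upper and lower glycolysis did not pass, and their differences ran from -0.27 for Eno1 to 0.27 for Aldoc.

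Bnip3, which sits on the outer mitochondrial membrane and recruits the autophagy machinery, had 2.58 and 3.06 RPKM in NPCs with Cbx3 siRNA, against 4.71 and 5.36 RPKM in control NPCs. It fell by 0.66 ± 0.10 (adjusted p = 0.0103). Its close relative Bnip3l did not pass, with 8.35 and 7.55 RPKM against 7.97 and 7.04 RPKM in controls, so Bnip3 made up 23.6 and 28.9% of the summed pair after Cbx3 siRNA, against 37.1 and 43.2% in controls. No gene for glucose entry, collagen modification or oxygen sensing passed in this comparison. Hif1a had 36.8 and 37.1 RPKM after Cbx3 siRNA, against 36.0 and 39.6 RPKM in controls, and its difference of -0.03 had a 95% confidence interval of -0.18 to 0.12 (adjusted p = 0.787). Vegfa, the angiogenic growth factor, had 3.47 and 4.10 RPKM against 5.33 and 4.88 RPKM in controls, and a difference of -0.35 that did not pass (adjusted p = 0.0556). Slc2a1, the widespread glucose transporter, had 83.4 and 79.6 RPKM against 103 and 87.0 RPKM in controls (difference -0.22, adjusted p = 0.159). Car9 stayed near 0, at 0.413 and 0.283 RPKM against 0.0854 and 0.176 RPKM in controls.

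Pdk1 and Pfkm passed the test whichever of the 6 NPC libraries was left out. Bnip3 did not pass without control replicate 2 or without Cbx3 siRNA replicate 1, Pfkl did not pass without either control library or without Cbx3 siRNA replicate 1, and Aldoa, Ldha and Pgam1 passed in 0 of 6 such fits, so the count of 7 ranged from 2 to 4. In a fit that takes its spread from all 10 libraries, 0 of the 7 passed. Markers of other cell types moved in the same libraries. Summed epithelial markers, of which 4 of 5 rose (Krt8, Krt18, Krt7 and Krt19), had 643 to 689 RPKM with Cbx3 siRNA, against 333 to 362 RPKM in controls. Summed neural progenitor markers, of which 3 of the 4 tested fell (Sox1, Pax6 and Sox2), had 55.9 to 58.9 RPKM with Cbx3 siRNA, against 75.7 to 77.7 RPKM in controls. Of the 7 ESC markers, 2 fell (Pou5f1 and Nanog), and of the 7 feeder markers, 3 rose and 1 fell. The part of these markers in the results for glycolytic genes was not tested, and in bulk RNA fewer cells of a type cannot be told apart from less RNA per cell.

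**Figure D2:**
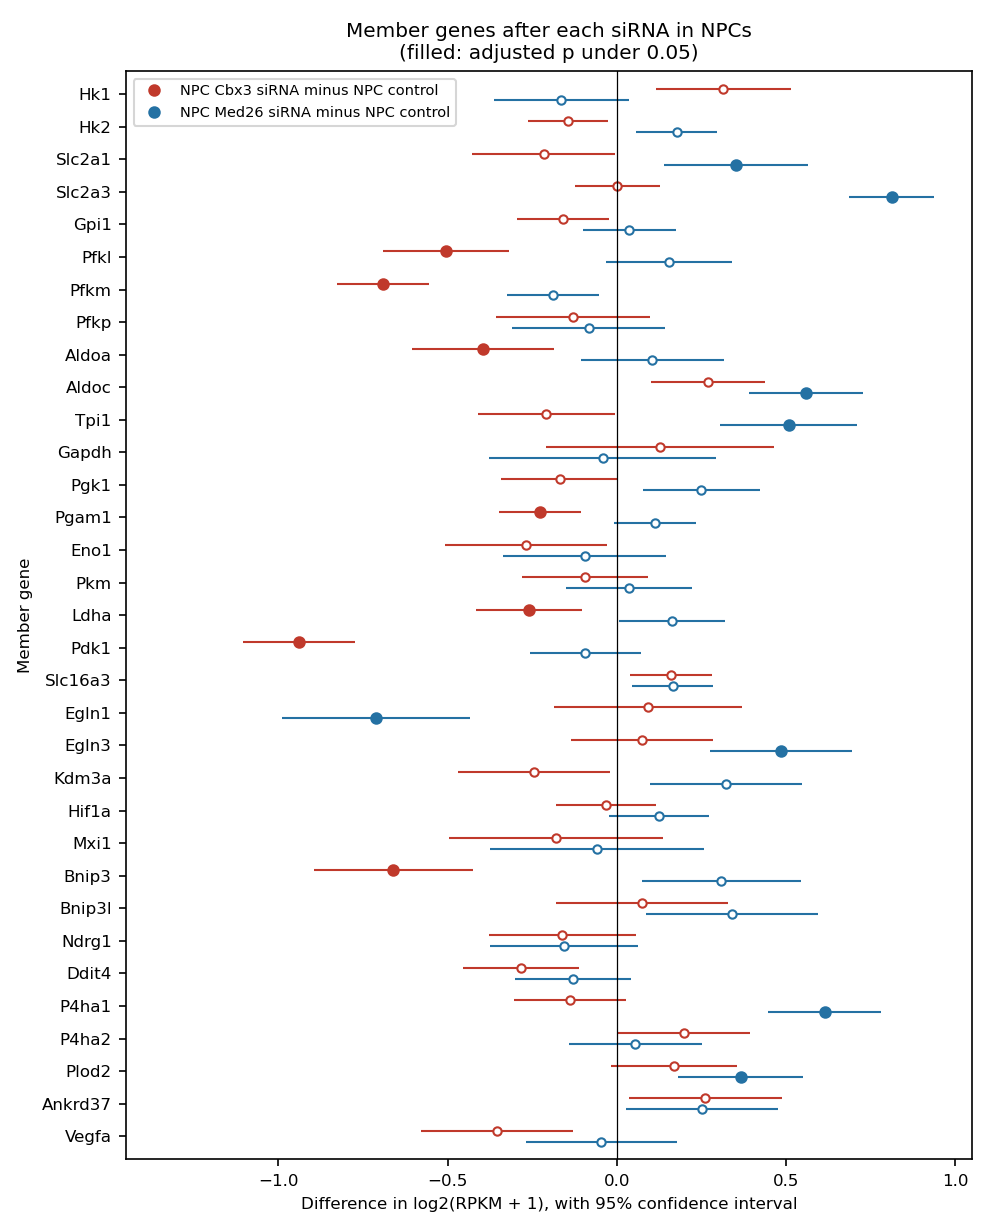
Difference in log2(RPKM + 1) of each of the 33 tested members in NPCs, with its 95% confidence interval: red, Cbx3 siRNA minus control; blue, Med26 siRNA minus control; filled points have an adjusted p under 0.05. The filled red points all lie below 0, down to -0.94 for Pdk1, and all filled blue points except Egln1 at -0.71 lie above 0, up to 0.81 for Slc2a3.

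After Med26 siRNA in NPCs, 7 members rose and 1 fell relative to control NPCs. Those that rose were the glucose transporters Slc2a3 and Slc2a1, the glycolytic enzymes Aldoc and Tpi1, the collagen-modifying enzymes P4ha1 and Plod2, and the HIF prolyl hydroxylase Egln3, while the related hydroxylase Egln1 fell. Over all genes tested, 6.90% were called higher and 6.46% lower, 13.4% in either direction. The median difference was 0.13 over the tested members and -0.00 over all genes tested. At an unadjusted p under 0.05, 15 members were higher and 2 were lower. Both libraries with Med26 siRNA lay above both controls for 19 members and below them for 6, against 29.1% and 29.8% of all genes. The control NPC libraries are the same as those used for Cbx3 siRNA, so the results of the siRNAs against control are not independent of each other.

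Among the genes for glucose entry, Slc2a3 had 384 and 369.9 RPKM in NPCs with Med26 siRNA, against 218 and 211 RPKM in control NPCs, and rose by 0.81 ± 0.05 (SE, n = 2 each, adjusted p = 0.00161). Slc2a1 had 118 and 125 RPKM after Med26 siRNA, against 103 and 87.0 RPKM in controls, and rose by 0.35 ± 0.09 (adjusted p = 0.0479). Both transporters were higher in both treated libraries than in either control, and their summed level was 502 and 495 RPKM with Med26 siRNA, against 321 and 298 RPKM in controls. The hexokinases did not pass: Hk2, the main one here, had 71.1 and 74.4 RPKM after Med26 siRNA, against 64.4 and 64.1 RPKM in controls (adjusted p = 0.0636).

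Tpi1, which interconverts the triose phosphates made by aldolase, had 219 and 241 RPKM in NPCs with Med26 siRNA, against 152 and 171 RPKM in control NPCs, and rose by 0.51 ± 0.08 (adjusted p = 0.0167). Aldoc had 2.36 and 2.35 RPKM after Med26 siRNA, against 1.28 and 1.28 RPKM in controls, a rise of 0.56 ± 0.07 (adjusted p = 0.00756). Aldoc is a minor aldolase in these cells, since Aldoa made up at least 99.3% of the aldolase sum in every library. All 5 tested members of lower glycolysis missed the threshold, with differences from -0.10 for Eno1 to 0.25 for Pgk1, a phosphoglycerate kinase. Pdk1, the member with the largest fall after Cbx3 siRNA, had 32.5 and 34.4 RPKM after Med26 siRNA and a difference of -0.09 with a 95% confidence interval of -0.26 to 0.07 (adjusted p = 0.403). Bnip3 had 6.50 and 6.43 RPKM after Med26 siRNA and a difference of 0.31 (adjusted p = 0.0847).

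P4ha1, the catalytic subunit of a collagen prolyl hydroxylase, had 9.91 and 10.3 RPKM in NPCs with Med26 siRNA, against 6.11 and 6.38 RPKM in control NPCs, and rose by 0.61 ± 0.07 (adjusted p = 0.00570). Plod2, a collagen lysyl hydroxylase, had 14.9 and 13.6 RPKM after Med26 siRNA, against 10.5 and 11.1 RPKM in controls, and rose by 0.37 ± 0.08 (adjusted p = 0.0299). The isozyme P4ha2 did not pass (difference 0.06, adjusted p = 0.693), and P4ha1 took 67 and 68% of the summed level of both after Med26 siRNA, against 57.7 and 57.1% in controls.

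Of the HIF prolyl hydroxylases, Egln1 and Egln3 moved in opposite directions after Med26 siRNA. Egln2, which is outside the member list and was more abundant than either, fell by 0.49 (adjusted p = 0.0112 by limma). Egln1, the main hydroxylase of HIF alpha under normal oxygen, had 6.33 and 7.85 RPKM in NPCs with Med26 siRNA, against 11.2 and 13.2 RPKM in control NPCs, and fell by 0.71 ± 0.12 (adjusted p = 0.0160). Egln3, a hydroxylase that is itself a HIF target, had 5.95 and 6.34 RPKM after Med26 siRNA, against 4.40 and 3.82 RPKM in controls, and rose by 0.48 ± 0.09 (adjusted p = 0.0202). Egln3 made up 48.4 and 44.7% of the sum of Egln1 and Egln3, without Egln2, after Med26 siRNA, against 28.2 and 22.4% in controls. Hif1a had 40.8 and 41.8 RPKM after Med26 siRNA, and its difference of 0.13 had a 95% confidence interval of -0.02 to 0.27 (adjusted p = 0.220). Vegfa had 4.91 and 4.91 RPKM after Med26 siRNA and did not pass (difference -0.05, adjusted p = 0.780). Car9 was listed at 0.168 and 0.0961 RPKM after Med26 siRNA.

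Slc2a3 passed whichever NPC library was left out, and P4ha1 in 5 of 6 such fits, failing without Med26 siRNA replicate 1. Egln1 did not pass without either control library or without Med26 siRNA replicate 1; Aldoc, Egln3, Plod2 and Tpi1 passed only when a library with Cbx3 siRNA was left out, Slc2a1 only without control replicate 1, and the count of 8 ranged from 1 to 3 when a control library or one with Med26 siRNA was left out. In a fit of all 10 libraries 0 of the 8 passed. Epithelial markers summed to 501 to 525 RPKM with Med26 siRNA, against 333 to 362 RPKM in controls, with 4 of 5 higher. Neural progenitor markers summed to 91.5 to 94.2 RPKM with Med26 siRNA, against 75.7 to 77.7 RPKM in controls, with 1 of 4 tested (Sox2) higher. Of the 7 ESC markers, 3 rose and 1 fell. Their part in the results was not tested.

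**Figure D3:**
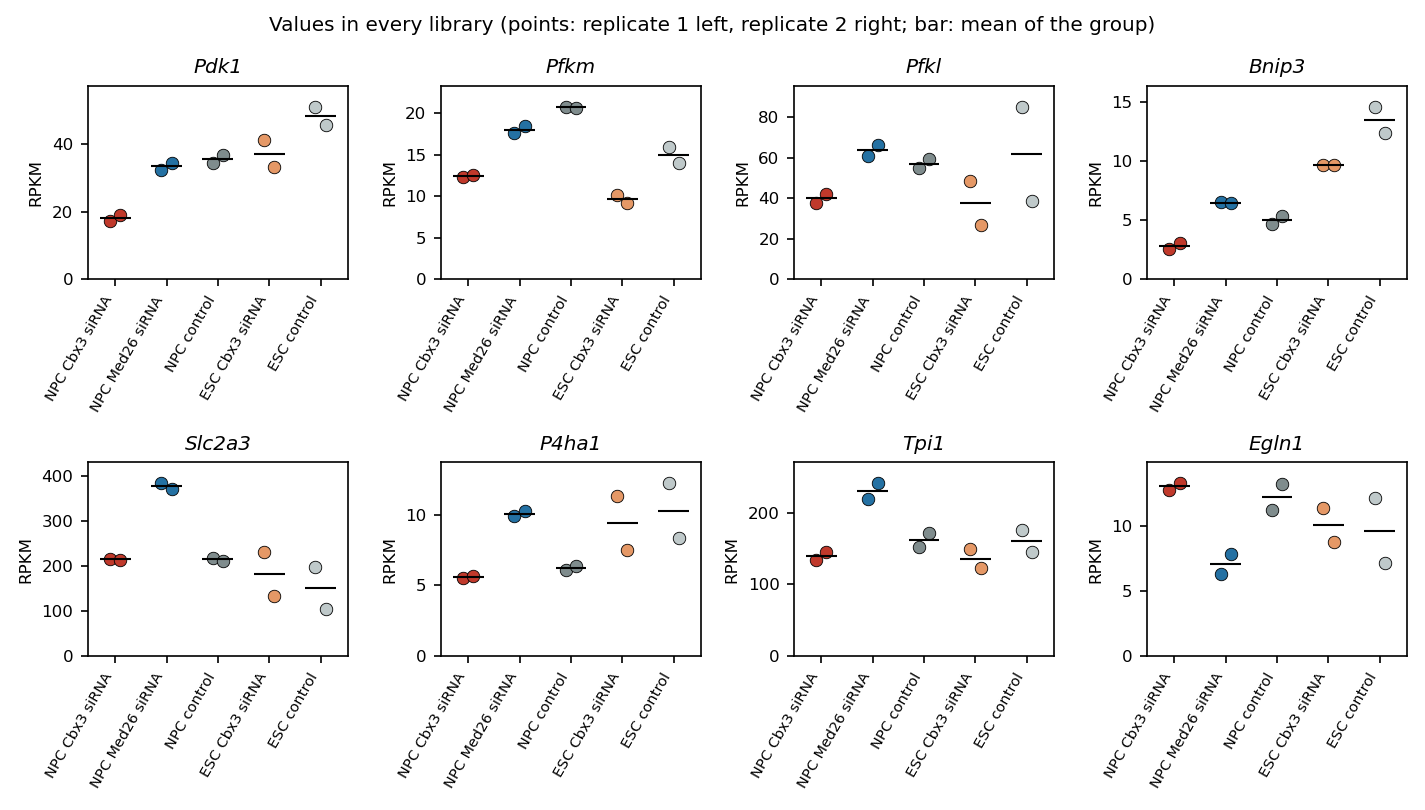
RPKM of 8 members in every library (points: replicate 1 left, replicate 2 right; bars: group means), from left to right NPCs with Cbx3 siRNA, NPCs with Med26 siRNA, control NPCs, ESCs with Cbx3 siRNA and control ESCs. The upper row holds the 4 members with the largest falls after Cbx3 siRNA in NPCs, where Pdk1 was at 17.4 and 19.0 RPKM; the lower row holds 4 members called after Med26 siRNA, where Slc2a3 was at 384 and 369.9 RPKM.

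Set directly against each other in NPCs, Cbx3 siRNA and Med26 siRNA differed at 18 members: 16 were lower after Cbx3 siRNA and 2, Egln1 and Hk1, were higher. Over all genes tested, 7.87% were called lower and 10.4% higher in this comparison, 18.3% in all. The median difference, Cbx3 siRNA minus Med26 siRNA, was -0.29 over the tested members and 0.01 over all genes tested. No control library enters this difference, although control libraries help to estimate the spread. The 5 members with the largest differences were Bnip3 at -0.97 ± 0.10 (adjusted p = 0.00310), Pdk1 at -0.85 ± 0.07 (adjusted p = 0.00174), Slc2a3 at -0.81 ± 0.05 (adjusted p = 0.00109), Egln1 at 0.80 ± 0.12 (adjusted p = 0.00796) and P4ha1 at -0.75 ± 0.07 (adjusted p = 0.00249).

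The group that stood apart was not the same for these 5 genes. For Pdk1 the NPCs with Cbx3 siRNA stood below both other groups, and for Slc2a3, P4ha1 and Egln1 the NPCs with Med26 siRNA stood apart from both others. Bnip3 was lowest after Cbx3 siRNA, with 2.58 and 3.06 RPKM, and highest after Med26 siRNA, with 6.50 and 6.43 RPKM. The other members called lower after Cbx3 siRNA than after Med26 siRNA were Tpi1 (-0.72), Pfkl (-0.66), Slc2a1 (-0.57), the HIF-induced histone demethylase Kdm3a (-0.57), Pfkm (-0.50), Aldoa (-0.50), Ldha (-0.42), Pgk1 (-0.42), Egln3 (-0.41), Pgam1 (-0.34), Hk2 (-0.32) and Aldoc (-0.29). They span glucose entry, both parts of glycolysis, lactate formation and hypoxia response. Hk1, the widespread hexokinase, had 5.52 and 4.91 RPKM after Cbx3 siRNA, against 3.37 and 3.54 RPKM after Med26 siRNA, and was higher by 0.48 ± 0.08 (adjusted p = 0.0132). The count of 18 was 11 without Cbx3 siRNA replicate 2, 10 without Med26 siRNA replicate 1 and 9 without Med26 siRNA replicate 2, and it was 2 in a fit of all 10 libraries.

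The glycolytic enzymes called after Cbx3 siRNA relative to control are given here with the values of both siRNAs. They were picked by values of the same Cbx3 siRNA libraries, so their lower level there is not separate support. Pfkm had 12.3 and 12.5 RPKM with Cbx3 siRNA, against 17.6 and 18.4 RPKM with Med26 siRNA, and Pfkl had 37.9 and 42.1 RPKM with Cbx3 siRNA, against 61.0 and 66.4 RPKM with Med26 siRNA. Aldoa had 469 and 523 RPKM with Cbx3 siRNA, against 667 and 735 RPKM with Med26 siRNA, and Pgam1 had 45.0 and 44.2 RPKM with Cbx3 siRNA, against 56.4 and 56.9 RPKM with Med26 siRNA. Ldha had 270.4 and 289 RPKM with Cbx3 siRNA, against 367 and 384 RPKM with Med26 siRNA.

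Members called after Med26 siRNA relative to control, apart from Slc2a1 given above, follow in the same way. They were picked by values of the same Med26 siRNA libraries, so their differences here are not separate support. Slc2a3 had 216 and 213 RPKM with Cbx3 siRNA, against 384 and 369.9 RPKM with Med26 siRNA, and Tpi1 had 134 and 145 RPKM with Cbx3 siRNA, against 219 and 241 RPKM with Med26 siRNA. Aldoc had 1.76 and 1.73 RPKM with Cbx3 siRNA, against 2.36 and 2.35 RPKM with Med26 siRNA, and P4ha1 had 5.52 and 5.66 RPKM with Cbx3 siRNA, against 9.91 and 10.3 RPKM with Med26 siRNA. Of the hydroxylases of HIF alpha, Egln1 and Egln3 lay in opposite orders. Egln1 had 12.8 and 13.3 RPKM with Cbx3 siRNA, against 6.33 and 7.85 RPKM with Med26 siRNA, and Egln3 had 4.44 and 4.30 RPKM with Cbx3 siRNA, against 5.95 and 6.34 RPKM with Med26 siRNA. Plod2 had 12.8 and 11.8 RPKM with Cbx3 siRNA, against 14.9 and 13.6 RPKM with Med26 siRNA, a difference of -0.20 that did not pass (adjusted p = 0.127).

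HIF binds DNA at a core of ACGTG or GCGTG within the hypoxia response element, so the promoters of these members were read for it. RefSeq windows (build GRCm38.p6) from 250 bases before to 50 bases after the transcript start are shown for 4 of the 5 members with the largest differences between the siRNAs. ACGTG and GCGTG on either strand are in capitals, and each line runs 5′ to 3′ on the gene's strand. The windows are chr7:138909457-138909756 (minus strand) for Bnip3, chr2:71872974-71873273 (plus strand) for Pdk1, chr10:59323046-59323345 (plus strand) for P4ha1 and chr8:124949205-124949504 (minus strand) for Egln1.

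Bnip3: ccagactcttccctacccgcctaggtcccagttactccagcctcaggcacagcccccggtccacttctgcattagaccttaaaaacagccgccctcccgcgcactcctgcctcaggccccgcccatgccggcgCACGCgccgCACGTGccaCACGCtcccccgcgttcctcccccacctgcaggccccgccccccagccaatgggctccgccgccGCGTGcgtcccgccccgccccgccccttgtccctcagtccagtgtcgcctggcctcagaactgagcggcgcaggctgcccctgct

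Pdk1: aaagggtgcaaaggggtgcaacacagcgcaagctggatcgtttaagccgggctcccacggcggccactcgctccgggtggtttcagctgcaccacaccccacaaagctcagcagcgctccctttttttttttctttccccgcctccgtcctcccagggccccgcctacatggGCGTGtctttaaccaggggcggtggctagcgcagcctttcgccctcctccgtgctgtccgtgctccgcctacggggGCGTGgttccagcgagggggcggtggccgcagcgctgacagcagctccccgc

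P4ha1: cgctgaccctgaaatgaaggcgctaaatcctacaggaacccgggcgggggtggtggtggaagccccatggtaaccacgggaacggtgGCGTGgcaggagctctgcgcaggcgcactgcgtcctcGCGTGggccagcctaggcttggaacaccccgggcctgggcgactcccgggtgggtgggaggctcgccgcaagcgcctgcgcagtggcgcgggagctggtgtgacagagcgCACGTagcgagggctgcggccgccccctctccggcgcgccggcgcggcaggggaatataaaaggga

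Egln1: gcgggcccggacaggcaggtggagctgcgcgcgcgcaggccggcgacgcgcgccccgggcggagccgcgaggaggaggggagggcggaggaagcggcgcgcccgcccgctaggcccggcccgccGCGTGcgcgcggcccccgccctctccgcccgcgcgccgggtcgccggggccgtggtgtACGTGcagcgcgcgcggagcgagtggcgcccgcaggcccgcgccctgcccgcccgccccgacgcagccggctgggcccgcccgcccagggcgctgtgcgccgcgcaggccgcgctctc

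The Bnip3 window held 5 starts of the core, with 1 CACGTG counted on both strands. The P4ha1 window held 3, and the Pdk1 and Egln1 windows 2 each. Pdk1 has another RefSeq window, chr2:71874654-71874953, which is not shown and held 0. Pdk1 and Bnip3 fell after Cbx3 siRNA, and after Med26 siRNA P4ha1 rose and Egln1 fell. A core was in at least 1 window of 28 of the 31 members with a window, so its presence in the windows shown does not bear on direction. Windows were found for 31 members, 48 windows in all since 11 members have 2 to 4, and 36 of them (75%) held ACGTG or GCGTG, against 63.1% of 11911 windows of genes tested and 43.8% of all 32851 windows of this length. Counted by itself, ACGTG was in 54.2% of member windows, against 26% in genes tested and 19.6% in all windows. GCGTG was in 50% of member windows, against 51.5% and 32.4%. The E-box CACGTG, which contains ACGTG and is bound by other factors such as Myc and Mxi1, was in 8.33% of member windows, against 10.3% and 7.15%. These are matches of letters, not measured binding. The member list was chosen for the response to low oxygen, so a larger share of the HIF core in it is not separate support. The shares count windows and not genes, and windows of 1 gene can overlap and hold the same match, as for Aldoa.

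Of the 33 tested members, 18 were called in neither siRNA comparison in NPCs. Among them, Ddit4, a stress-induced inhibitor of mTOR signalling, had 13.3 and 14.4 RPKM with Cbx3 siRNA and 15.6 and 15.5 RPKM with Med26 siRNA, against 17.9 and 16.3 RPKM in control NPCs. Kdm3a had 7.72 and 6.67 RPKM with Cbx3 siRNA and 11.8 and 10.5 RPKM with Med26 siRNA, against 8.83 and 8.54 RPKM in controls, so that treated libraries lay on opposite sides of the controls. Ankrd37, a small ankyrin-repeat protein and HIF target, had 2.54 and 3.07 RPKM with Cbx3 siRNA and 2.66 and 2.88 RPKM with Med26 siRNA, against 2.16 and 2.17 RPKM in controls, and was higher in all treated libraries without passing (adjusted p = 0.119 and 0.126). Ndrg1 and Mxi1, a transcription repressor that opposes Myc, stayed under 2.3 RPKM in all NPC libraries. Gpi1, which isomerizes glucose phosphate, differed by -0.16 after Cbx3 siRNA and 0.04 after Med26 siRNA, and Pkm by -0.09 and 0.04.

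Isozymes of a family were set side by side as shares of their summed RPKM. The summed phosphofructokinase level was 55.5 and 60.3 RPKM in NPCs with Cbx3 siRNA, 84 and 90.6 RPKM with Med26 siRNA and 81.2 and 86.4 RPKM in control NPCs. The platelet type Pfkp did not pass after either siRNA, at -0.13 after Cbx3 siRNA and -0.08 after Med26 siRNA. Pfkl made up 68.3 and 69.9% of the sum with Cbx3 siRNA, 72.5 and 73.2% with Med26 siRNA and 67.6 and 68.6% in control NPCs. Hk2 made up at least 90.2% of the hexokinase sum in all 10 libraries, and Slc2a3 took 76.5 and 74.8% of the glucose transporter pair with Med26 siRNA, against 67.8 and 70.8% in control NPCs.

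**Figure D4:**
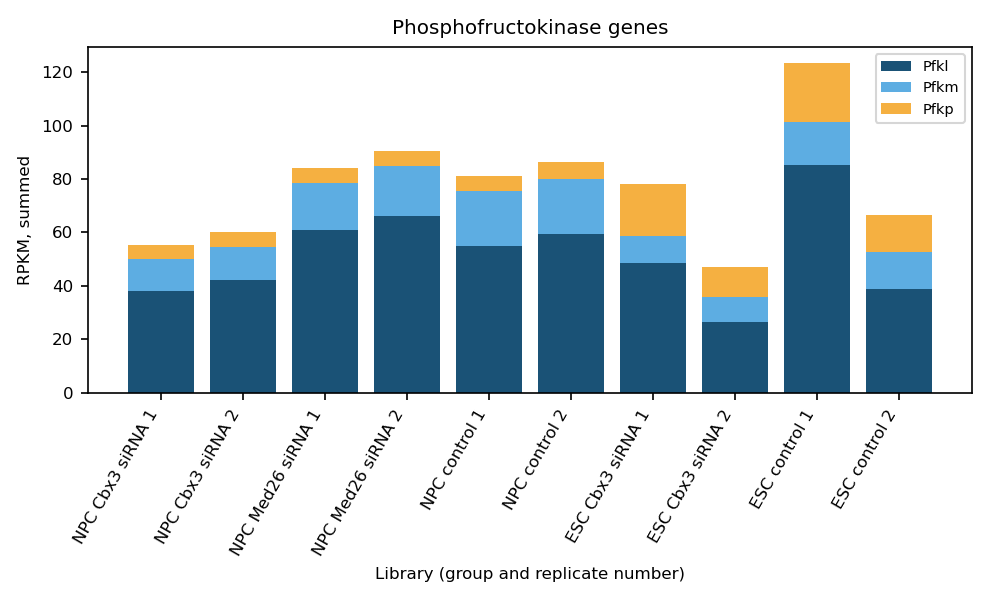
Summed RPKM of the phosphofructokinase genes in each library, split into Pfkl (dark blue), Pfkm (light blue) and Pfkp (orange). The bars of NPCs with Cbx3 siRNA, at 55.5 and 60.3 RPKM, are shorter than those of control NPCs, at 81.2 and 86.4 RPKM, and Pfkp is a larger share in ESCs than in NPCs.

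Genes of the same pathways outside the member list did not show 1 common direction. Of 15 tested among 31 other glycolytic enzymes and isozymes, 2 rose and 2 fell after Cbx3 siRNA, and 4 rose and 2 fell after Med26 siRNA. Over all genes tested, 7.80% were called higher and 5.33% lower after Cbx3 siRNA, and 6.90% higher and 6.46% lower after Med26 siRNA, and the counts of the other lists can be read against these shares. Pgm1, a phosphoglucomutase that links glycogen to glycolysis, had 13.1 and 13.8 RPKM in NPCs with Cbx3 siRNA and 25.6 and 25.6 RPKM with Med26 siRNA, against 18.0 and 18.2 RPKM in control NPCs, differences of -0.41 (adjusted p = 0.00883) and 0.48 (adjusted p = 0.00675). The lactate and pyruvate carrier Slc16a1 rose after both, by 0.50 (adjusted p = 0.0100) and 0.32 (adjusted p = 0.0384). Eno3, the muscle enolase, rose by 0.71 after Med26 siRNA (adjusted p = 0.00843), and Ldhb, the subunit that favours pyruvate, fell by 0.42 (adjusted p = 0.0183). Bpgm, a bisphosphoglycerate mutase, fell by 0.51 after Med26 siRNA (adjusted p = 0.0290). After Cbx3 siRNA, Adpgk, a glucokinase that uses ADP, rose by 0.30 (adjusted p = 0.0220), and Slc2a8, a glucose transporter of internal membranes, fell by 0.29 (adjusted p = 0.0485).

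Of 13 tested genes for pyruvate entry into mitochondria, 0 were called by limma after either siRNA, and at an unadjusted p under 0.05 there were 2 higher and 1 lower after Cbx3 siRNA and 1 higher after Med26 siRNA. Their median differences were -0.01 after Cbx3 siRNA and -0.05 after Med26 siRNA. Of the 10 genes of the pentose phosphate branch, Rpia rose by 0.50 and Pgls and Prps2 fell by 0.34 and 0.32 after Cbx3 siRNA (adjusted p = 0.0200, 0.0164 and 0.0224). Prps1 fell by 0.38 after Med26 siRNA (adjusted p = 0.0354). Among 15 tested genes of the HIF machinery, Vhl was called lower after both siRNAs, with 7.30 and 6.62 RPKM after Cbx3 siRNA and 6.26 and 6.52 RPKM after Med26 siRNA, against 9.06 and 9.17 RPKM in control NPCs. Its differences were -0.35 (adjusted p = 0.0309) and -0.45 (adjusted p = 0.0165). Egln2, the remaining HIF prolyl hydroxylase, had 16.0 and 17.5 RPKM after Med26 siRNA, against 23.4 and 24.5 RPKM in controls, and fell by 0.49 (adjusted p = 0.0112), while Arnt2, a partner of HIF alpha, rose by 0.54 (adjusted p = 0.0386).

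Other targets of hypoxia, many of them secreted, were called in both directions after Cbx3 siRNA and were higher where called after Med26 siRNA. Of 32 tested in a list of 40, 9 rose and 4 fell after Cbx3 siRNA, and 10 rose and 0 fell after Med26 siRNA (12 higher and 4 lower at an unadjusted p under 0.05 by limma). The list's median differences were 0.05 after Cbx3 siRNA and 0.08 after Med26 siRNA. Among those that rose after Cbx3 siRNA were Anxa1, Igfbp3, Edn1 and the transcription factor Bhlhe40, with differences of 1.35, 1.23, 1.13 and 0.85. Among those that rose after Med26 siRNA were Anxa1 (1.23), Bhlhe40 (0.90), Loxl2 (0.74) and Hmox1 (0.63). Several of these genes also respond to signals other than hypoxia, and the epithelial markers given above rose in the same libraries.

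In ESCs, 0 members and 0 genes (0% of those tested) passed between Cbx3 siRNA and control by limma. The siRNA target Cbx3 itself missed the threshold, with 1.01 and 1.96 RPKM after its siRNA, against 14.0 and 56.4 RPKM in control ESCs. This test therefore missed a large fall, and its count of 0 cannot be read as absence of a response. The count also changed with the replicate number as a block, as given in the last section. At an unadjusted p under 0.05, 645 genes passed, among them 3 members, all lower. The lowest adjusted p among members was 0.339, that of Pfkm, with 10.2 and 9.16 RPKM in ESCs with Cbx3 siRNA, against 16.0 and 14.0 RPKM in control ESCs (difference -0.58 ± 0.10). Bnip3 had 9.66 and 9.68 RPKM after Cbx3 siRNA, against 14.6 and 12.4 RPKM in controls, and Pdk1 had 41.2 and 33.4 RPKM after Cbx3 siRNA, against 51.2 and 45.7 RPKM in controls. Pfkm, Bnip3 and Pdk1 lay below both controls in both treated libraries, as did Aldoa and Vegfa, and these 5 of 33 are close to the 13.1% found over all genes. Only P4ha2 lay above both controls, against 7.86% of all genes. The median difference was -0.22 over the tested members and -0.03 over all genes.

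The remaining members that were called after Cbx3 siRNA in NPCs had wide ranges in ESCs. Pfkl had 48.4 and 26.6 RPKM in ESCs with Cbx3 siRNA, against 85.3 and 38.8 RPKM in control ESCs, so the libraries numbered 2 lay below those numbered 1 within each group. Ldha had 347 and 413 RPKM after Cbx3 siRNA, against 342 and 455 RPKM in controls, and Pgam1 had 53.0 and 106 RPKM after Cbx3 siRNA, against 64.0 and 122 RPKM in controls. For Ldha and Pgam1 the difference between the numbered libraries of a group was larger than any difference between the groups at the same number. Aldoa had 551 and 426 RPKM with Cbx3 siRNA, against 682 and 561 RPKM in controls, with no overlap.

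Members called after Med26 siRNA in NPCs were also read in ESCs, where several differed between the numbered libraries. Slc2a3 had 231 and 133 RPKM in ESCs with Cbx3 siRNA, against 198 and 104 RPKM in control ESCs, and P4ha1 had 11.4 and 7.54 RPKM after Cbx3 siRNA, against 12.3 and 8.38 RPKM in controls. Tpi1 had 149.7 and 122 RPKM after Cbx3 siRNA, against 175 and 144 RPKM in controls, and Aldoc had 3.29 and 1.30 RPKM after Cbx3 siRNA, against 4.55 and 1.58 RPKM in controls. All 4 were lower in the library numbered 2 of either group. Egln1 had 11.4 and 8.81 RPKM after Cbx3 siRNA, against 12.1 and 7.15 RPKM in controls, Egln3 had 6.69 and 1.98 RPKM after Cbx3 siRNA, against 10.8 and 2.71 RPKM in controls, and Plod2 had 12.8 and 12.7 RPKM after Cbx3 siRNA, against 14.2 and 10.4 RPKM in controls. Hif1a had 35.3 and 42.3 RPKM with Cbx3 siRNA, against 41.1 and 40.4 RPKM in controls. Vegfa had 4.63 and 3.57 RPKM after Cbx3 siRNA, against 5.32 and 5.11 RPKM in controls, Slc2a1 had 121 and 71.8 RPKM after Cbx3 siRNA, against 147 and 99.4 RPKM in controls, and Car9 had 0.258 and 0.220 RPKM after Cbx3 siRNA, against 0.110 and 0.0637 RPKM in controls. Without both libraries numbered 2, a choice made after the data were seen, 2 members were called lower after Cbx3 siRNA, Pfkl and Pfkm, against 0.393% of all genes called lower and 0.652% called in all, in a fit that assumes the single libraries vary as NPC libraries do.

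The median gap between the numbered ESC libraries was larger over the members than over all genes. As log2(RPKM + 1), replicate 2 minus replicate 1, its median size was 0.461 in ESCs with Cbx3 siRNA and 0.411 in control ESCs over the tested members, against 0.256 and 0.272 over all genes tested, and 0.0785 to 0.108 for the members in NPC groups. Gapdh differed by 4.26 in ESCs with Cbx3 siRNA and by 4.02 in control ESCs, with 1.82 and 53.2 RPKM in ESCs with Cbx3 siRNA and 2.62 and 57.8 RPKM in control ESCs. Eno1, Pgk1 and Pgam1 were also higher in the libraries numbered 2, by 1.61, 1.46 and 0.99 in ESCs with Cbx3 siRNA and by 1.60, 1.31 and 0.92 in controls, and these genes have 5, 4 and 3 pseudogene matches. Egln3 (-1.37 and -1.68), Ankrd37 (-1.42 and -1.04) and Ddit4 (-1.32 and -1.12) were lower there and have 0 such matches. Other members with matches differed less. Ldha with 13 matches was higher by 0.25 and 0.41, and Pkm with 8 by 0.42 and 0.32. Aldoa with 5 and Tpi1 with 2 were lower (-0.37 and -0.28, and -0.30 and -0.28). The median gap was 0.42 and 0.41 over the 5 members with 5 or more matches. It was 0.11 and -0.16 over the 7 with 1 to 4, and -0.46 and -0.50 over the 21 with 0. Over all genes with 5 or more matches, 181 in number, the median gap was 1.43 and 1.44, against -0.04 and -0.10 for 10258 genes with 0 matches, and it was at most 0.07 in the NPC groups. The sources do not say how such reads were treated in each library, and their part was not tested.

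**Figure D5:**
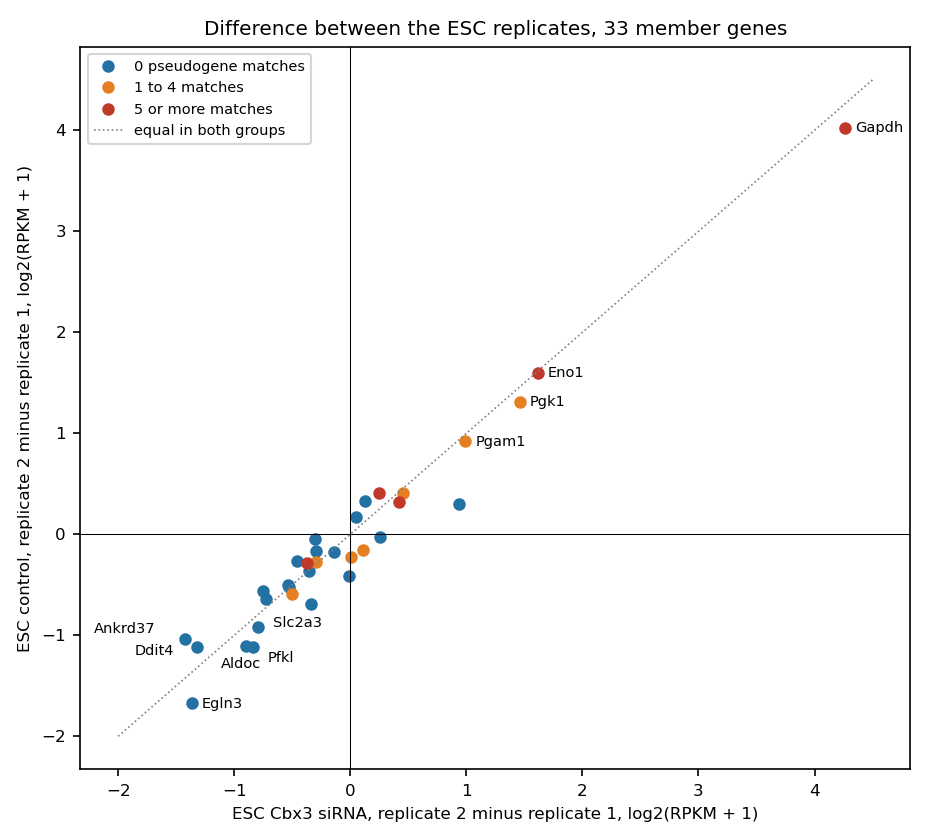
Difference between the ESC libraries numbered 2 and 1 in log2(RPKM + 1) for the 33 tested members: horizontal axis, ESCs with Cbx3 siRNA; vertical axis, control ESCs; colours give the number of pseudogene matches. The points lie near the dotted line of equal gaps, with Gapdh at 4.26 and 4.02 and Egln3 at -1.37 and -1.68.

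Between the cell types, 8 members differed in control NPCs relative to control ESCs: Slc16a3, Pfkm and P4ha2 were higher, and Pfkp, Bnip3, Kdm3a, Hk1 and Bnip3l were lower. Over all genes tested, 10.1% were called higher and 5.94% lower, 16.0% in all. The median difference was -0.35 over the tested members and 0.03 over all genes. Both control NPC libraries lay above both control ESC libraries for 4 members and below them for 16, against 34.5% and 24.6% of all genes. This comparison shares the control libraries with the siRNA comparisons. Slc16a3, which exports lactate, had 129 and 129.9 RPKM in control NPCs, against 37.1 and 46.8 RPKM in control ESCs, and rose by 1.61 ± 0.12 (SE, n = 2 each, adjusted p = 0.000991). Bnip3 had 4.71 and 5.36 RPKM in control NPCs, against 14.6 and 12.4 RPKM in control ESCs, and fell by 1.26 ± 0.12 (adjusted p = 0.00179). Both genes passed in 10 of 10 fits that left out a library. In a fit of the 4 control libraries alone, 0 of the 8 members and 47 genes passed.

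Among the phosphofructokinases, Pfkp had 5.55 and 6.52 RPKM in control NPCs, against 22.1 and 13.8 RPKM in control ESCs, and fell by 1.40 ± 0.27 (adjusted p = 0.0153). Pfkm had 20.8 and 20.6 RPKM against 16.0 and 14.0 RPKM in ESCs, and rose by 0.44 ± 0.10 (adjusted p = 0.0233). As shares of their sum, Pfkp took 6.83 and 7.54% in control NPCs, against 17.9 and 20.7% in control ESCs, while the sum itself was 81.2 and 86.4 RPKM in control NPCs, against 123 and 66.6 RPKM in control ESCs. Kdm3a had 8.83 and 8.54 RPKM in control NPCs, against 21.9 and 14.9 RPKM in control ESCs, Hk1 had 4.01 and 3.97 RPKM in NPCs, against 7.61 and 6.14 RPKM in ESCs, Bnip3l had 7.97 and 7.04 RPKM in NPCs, against 11.5 and 10.2 RPKM in ESCs, and P4ha2 had 4.48 and 4.79 RPKM in NPCs, against 2.91 and 3.40 RPKM in ESCs. The NPC and ESC libraries did not overlap for any of these 4 genes. Kdm3a fell by 0.98 ± 0.21 (adjusted p = 0.0234), Hk1 by 0.65 ± 0.16 (adjusted p = 0.0367) and Bnip3l by 0.48 ± 0.12 (adjusted p = 0.0360), and P4ha2 rose by 0.44 ± 0.10 (adjusted p = 0.0288).

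Hif1a had 36.0 and 39.6 RPKM in control NPCs, against 41.1 and 40.4 RPKM in control ESCs, and did not pass (difference -0.11, adjusted p = 0.508). Vegfa did not pass either (difference -0.03, adjusted p = 0.903). The largest difference of all members was that of Gapdh, -2.15 ± 1.51, which did not pass (adjusted p = 0.356), with 2.47 and 2.13 RPKM in control NPCs, against 2.62 and 57.8 RPKM in control ESCs. Leaving out control ESC replicate 1 gave 3 called members, leaving out either control NPC library gave 2, and leaving out either library of an siRNA-treated NPC group gave 4. Without both ESC libraries numbered 2, a choice made after the data were seen, 23 members were called, 4 higher and 19 lower, against 46.2% of all genes tested, 23.1% higher and 23.1% lower. The single control ESC library was assumed to vary as NPC libraries do. In that fit the difference of Eno1 was 0.62, against -0.18 with all libraries. Fibroblast feeder markers summed to 79.8 to 83.7 RPKM in control NPCs, against 176 to 184 RPKM in control ESCs. Vim made up most of these sums, with 76.3 and 74.1 RPKM in control NPCs, against 127 and 110 RPKM in control ESCs. The feeder markers S100a4 (1.38 and 1.13 against 27.2 and 34.3 RPKM) and Col1a2 (2.66 and 2.15 against 14.0 and 21.8 RPKM) differed by more. Epithelial markers summed to 333 to 362 RPKM, against 116 to 214 RPKM. The part of these markers was not tested.

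The difference between the response to Cbx3 siRNA in NPCs and that in ESCs was tested as an interaction. By limma 0 members and 0 genes (0% of those tested) passed, with 233 genes and 1 member, Pdk1, at an unadjusted p under 0.05. The estimate for Pdk1 was -0.57 with a 95% confidence interval of -0.97 to -0.16, and those of the members ran from that value to 0.54 for Egln3. For Pfkm it was -0.11 (-0.43 to 0.21), and for Bnip3 -0.22 (-0.61 to 0.16). A count of 0 does not show that the responses were alike in NPCs and ESCs, since the median SE of this contrast over all genes was 0.216.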

How the data were processed

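RNA was extracted with Trizol and sequenced from TruSeq libraries, per the labels' protocols. The authors deposited RPKM values per RefSeq accession. TopHat2 2.08 and mm9 appear in the submitters' processing notes, without their roles. A counting tool, an annotation release, strand use and a rule for multiply matching reads were not given in the sources used here; overlapping genes and near-identical copies may share reads. Of 35860 rows (34720 accessions), 99.07% were matched to gene symbols by RefSeq names (GRCm38.p6), and 334 rows kept their accession. Each gene was represented by its row with the highest mean RPKM; 17 members had several rows, and their changes after an siRNA differed by at most 0.0349 on the log2 scale. The filter for testing was 1 RPKM or more in 2 or more libraries.

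Because deposited RPKM values are not counts, tests used limma 3.58.1 (R 4.3.3) on log2(RPKM + 1) with an intensity trend, two-sided, with Benjamini-Hochberg adjustment over all 11956 genes at 0.05. NPC comparisons were fitted on the 6 NPC libraries (3 residual degrees of freedom), and others on all 10 libraries (5 residual degrees of freedom), because the ESC libraries vary more. The median SD was 0.0837 in the first fit and 0.153 in the second, after limma drew each gene's residual SD toward that of genes of similar level. The code was tested on simulated data. Depth was estimated from steps between low RPKM values; 68.7% to 72.0% lay within 0.1 of a whole step, too few to recover counts. Pseudogene matches were counted with blastn 2.17.0 of 11772 genes against 13607 GENCODE M21 pseudogene transcripts. The members, gene lists, markers and tests were chosen with earlier results of these data known. Members called after an siRNA in NPCs, and Hif1a, Vegfa, Car9 and Slc2a1, are given with the values of every library, and up to 5 called genes per other list and comparison are named, except 1 gene that is not reported here.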

Additional observations from a re-analysis of the deposited data

How the results depend on the processing

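Counts of called members and of called genes depended on the choice of fit. With every gene above 0 RPKM tested, 4 members and 876 genes were called for Cbx3 siRNA against control in NPCs, 3 members and 611 genes for Med26 siRNA against control, 1325 genes for Cbx3 against Med26 siRNA, 2 genes for Cbx3 siRNA in ESCs, 5 members for control NPCs against control ESCs and 4 genes for the interaction. In a fit of all 10 libraries the NPC comparisons gave 0 members and 1 gene for Cbx3 siRNA, 0 members and 15 genes for Med26 siRNA, and 2 members and 120 genes for Cbx3 against Med26 siRNA. A fit of the 4 control libraries gave 0 members and 47 genes for NPCs against ESCs. Leaving out 1 library at a time gave 2 to 4 members and 391 to 1063 genes for Cbx3 siRNA in NPCs, 1 to 7 members and 164 to 1148 genes for Med26 siRNA, 9 to 17 members and 560 to 1672 genes for Cbx3 against Med26 siRNA, 0 members and 0 to 1 genes for Cbx3 siRNA in ESCs, 2 to 11 members and 185 to 2699 genes for control NPCs against control ESCs, and 0 members and 0 genes for the interaction. A pseudocount of 0.1, libraries shifted to a common median, RPKM summed over the rows of a gene and a fit with no intensity trend kept each of these counts within 1.5 times. Without both ESC libraries numbered 2, chosen after the data were seen, Cbx3 siRNA in ESCs gave 2 members and 78 genes, control NPCs against control ESCs 23 members and 5518 genes, and the interaction 168 genes, and the difference of Eno1 between control NPCs and ESCs reversed to 0.62. With the replicate number as a block, the replicate block gave 18 members and 3495 genes for Cbx3 siRNA in NPCs, 18 members and 3705 genes for Med26 siRNA, 4234 genes for Cbx3 against Med26 siRNA, 13 members and 813 genes for Cbx3 siRNA in ESCs, 25 members and 6556 genes for control NPCs against control ESCs, and 6 genes for the interaction. Each cell type had its own term for replicate 2, so control NPCs and ESCs were compared there at the level of replicate 1. The 25 members and 6556 genes refer to that level and not to the mean of the replicates. Signs opposite to the main fit for Aldoa (-0.16), Eno1 (0.53) and Tpi1 (-0.19) follow from this coding and not from blocking itself. Replicate differences correlated across genes between groups by r = 0.434, 0.461 and 0.423 in NPCs and 0.892 in ESCs, but the labels tie the numbers to no shared culture or day. Where the count changed, the cause was not tested. With 2 libraries a group and an unknown number of reads per value, small changes of low members were not detectable.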
